A study of Canis lupus familiaris with 18 samples.

Results

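The regions described here carried a deposited H3K27ac peak in all 3 dogs with the ancestral allele of the *GTF2I* transposable element (TE) and in none of the 3 dogs with the derived allele. They were chosen by presence and absence of H3K27ac peaks: all deposited peaks of the 6 animals on chromosomes 1 to 38 were merged where they overlapped or touched, and 480 of 175766 merged regions met the rule (0.273%). The H3K27ac values that chose these regions are given as a description, with no test.

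*ChIP-seq* peaks came from flash-frozen brainstem (pons) of male dogs aged 12 to 16 years, 3 animals per genotype. The ancestral animals were heterozygous, with 1 allele that holds the TE insertion in *GTF2I*, and the derived animals were homozygous for the allele that lacks it. All were mixed-breed pet dogs except ancestral animal 1, a Labrador Retriever, and the animals also differed at other polymorphic TE sites on chromosome 6, so genotype at this site cannot be told apart from other differences between these dogs. Each animal gave 1 H3K27ac list and 1 E2F1 list, so that the E2F1 peaks come from other libraries of the same animals.

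H3K27ac is the acetylated form of a lysine in the tail of histone H3, and it marks active promoters and enhancers, both near genes and far from them. In brain tissue the mark is a mixture over neurons and glia, so a weak peak can come from many cells with little acetylation or from few cells with much, and bulk tissue cannot tell these apart. E2F1 is a DNA-binding transcription factor best known for promoters of genes of the cell cycle, and it is also present in cells that no longer divide. Coordinates are 1-based on CanFam3.1. Genes, exons, introns and sequences at these positions were not analysed here.

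Regions private to 1 genotype were a small class. Of all merged regions, 65115 (37%) had a peak in 1 animal, 14553 (8.28%) in exactly 3 animals and 47984 (27.3%) in all 6. The reverse class, regions called in the 3 derived animals and no ancestral animal, had 577 members (0.328%). The 480 ancestral-only regions were 3.3% of the regions called in exactly 3 animals, and the derived-only regions 3.96%.

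Any 3 of the 6 animals can be the only ones with a peak in a region, which gives 20 possible trios. The 3 ancestral animals ranked 8 from the lowest, with 12 trios sharing more private regions and 7 sharing fewer. The counts ran from 284 for ancestral animal 2 with derived animals 1 and 2 to 2235 for ancestral animal 1 with derived animals 1 and 3, with a median of 550.5 over the trios. Trios that include ancestral animal 1, the animal with the longest list, held 1003.7 regions on average, and those without it held 451.6. When both sides are added, the genotype division gave 1057 regions. The other 9 ways to divide the animals into 3 and 3 gave 856 to 2539 (median 1364), and 8 of them had a larger sum. The count of regions private to a genotype was therefore within the range of the counts for mixed trios.

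The number of peaks differed between animals. Ancestral animals 1, 2 and 3 had 138141, 98700 and 100292 H3K27ac peaks on these chromosomes, covering 298.4, 216.2 and 232.1 Mb. Derived animals 1, 2 and 3 had 118156, 96561 and 113447 peaks, covering 257.7, 252.9 and 267 Mb. The ranges overlap between genotypes. Read depth was not used here, and a list holds no value where no peak was called, so absence from a list is not absence of acetylation. With the same number of peaks taken from each animal, the strongest by q, 391 regions were ancestral-only, and they overlapped 206 of the 480 members (42.9%).

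The peaks in the ancestral-only regions were weak within their own lists. Their median fold enrichment over local background was 2.57, 2.73 and 2.52 in ancestral animals 1, 2 and 3, against 2.9, 3.16 and 3.14 over all peaks of the same lists. Their median −log10 q was 1.9, 2.35 and 1.98, against list medians of 2.66, 3.73 and 3.95. Ranked by q within its list, the median member stood at percentile 29.2, 28.2 and 20.8, where a percentile is the share of the list's peaks with a lower −log10 q. All 3 animals thus had these peaks in the lower part of their lists. The derived-only regions were alike in this, with median folds of 2.67, 2.53 and 2.58 in derived animals 1, 2 and 3.

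The lists reach down to a q of 0.1, and many members depended on this tail. A peak with q below 0.05 was present in all 3 ancestral lists in 351 members (73.1%), in 2 lists in 116 and in 1 list in 13. Taken list by list, 88.5, 94.8 and 87.1% of members had such a peak in ancestral animals 1, 2 and 3. Of all peaks in the same lists, 93.7, 97.1 and 95.5% had a q below 0.05. Derived-only regions had such a peak in 96, 90.6 and 89.4% in derived animals 1, 2 and 3. Only 15 members lay above the list median in all 3 animals, 191 did so in at least 1, and 289 (60.2%) lay below it in all 3. Ancestral animal 2 had the highest percentile in 197 members (41%), ancestral animal 1 in 189 (39.4%) and ancestral animal 3 in 94 (19.6%).

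The 3 animals often shared a region rather than a peak outline. The peaks of all 3 had at least 1 base in common in 415 members, while in 65 no base was shared by all 3 and the peaks were joined by overlap of neighbours. The median member had 20.3% of its length inside peaks of all 3 animals (quartiles 7.58 and 36.7%), and in 79 members at least 50% was shared. Most members, 457 of them, held exactly 1 peak per ancestral animal. When the peaks of each ancestral animal had to cover at least 50% of the region, 125 regions were left.

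A threshold of 1e-05 selected almost wholly other regions, while with q below 0.05 most members were still overlapped. With H3K27ac peaks of q below 1e-05 alone, 129 regions were ancestral-only, and only 3 of the 480 members overlapped one of them. Of those 129, 126 lay in regions merged from all deposited peaks where a derived animal also had a deposited peak. In 92 (71.3%) all 3 derived animals had one. The q of these derived peaks, and where in the merged region they lay, were not examined. With q below 0.05 there were 431 ancestral-only regions, which overlapped 351 of the 480 members.

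Just outside the rule, 1870 regions had a peak in all 3 ancestral animals and exactly 1 derived animal, and 3766 had a peak in exactly 2 ancestral animals and no derived animal. The single derived peak was in derived animal 1 in 723 regions, in derived animal 2 in 478 and in derived animal 3 in 669, and 109 of these 1870 peaks (5.83%) had a q that was not below 0.05. The region chr10:60706032-60707308 missed the rule by a peak of derived animal 1 with a −log10 q of 1, beside 2.34, 3.16 and 2.28 in ancestral animals 1, 2 and 3. In chr13:34294430-34296639 a peak of derived animal 2 with a −log10 q of 1.01 stood beside 1.28, 4.73 and 1.98. In chr4:37306536-37308646 the value was 1.01 in derived animal 2 and 1.2, 2.34 and 1.41 in the ancestral animals. In each of the 3 the lone derived peak was at or near the lowest −log10 q that the lists hold.

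Just inside the rule, derived peaks often lay close by. The nearest derived peak was a median of 3265 bp away (quartiles 1450 and 8153 bp), with 18 members (3.75%) within 500 bp, 54 (11.2%) within 1000 bp and 300 (62.5%) within 5000 bp of one. In chr1:102827147-102829161, with −log10 q values of 2.14, 1.61 and 1.84 in ancestral animals 1, 2 and 3, a peak of derived animal 3 with a −log10 q of 1.08 lay 13 bp away. A peak of derived animal 1 lay 17 bp from chr35:23402972-23404557 with a −log10 q of 1.96, and another lay 48 bp from chr25:36783897-36787977 with 1.72. The most remote member was 368611 bp from a derived peak. These distances were not set against those of other regions, so they do not show whether members differ from other regions in this.

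With all deposited peaks, the members had about the width of other regions called in exactly 3 animals. Their median width was 1481 bp (quartiles 936 and 2182 bp, range 309 to 10219 bp), against 1414 bp for derived-only regions and 1412 bp for all regions called in exactly 3 animals. Regions called in all 6 animals had a median of 4118.5 bp, and regions called in 1 animal 519 bp. With H3K27ac peaks of q below 1e-05 alone, the median width of the ancestral-only regions was 2321 bp, more than 1.5 times larger. The 480 members covered 0.832 Mb in all. Wide members were somewhat more frequent than in the reverse class, since 54 (11.2%) reached 3000 bp, against 38 derived-only regions (6.59%) and 7.9% of the regions called in exactly 3 animals. At the narrow end, 44 members (9.17%) were under 500 bp, against 8.15% of derived-only regions, 7.96% of regions called in exactly 3 animals and 21.5% of all merged regions.

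Width was not matched by strength. From the 120 narrowest members (309 to 933 bp) to the 120 widest (2188 to 10219 bp), the median fold went from 2.68 to 2.52 in ancestral animal 1, from 2.71 to 2.89 in ancestral animal 2 and from 2.64 to 2.47 in ancestral animal 3. Of the 15 members above the list median in all 3 animals, 11 were among the 120 narrowest. The median distance to the nearest region called in all 6 animals was 9045 bp for the 120 narrowest and 20521.5 bp for the 120 widest.

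The 5 widest members drew their width mainly from ancestral animal 2. In chr13:31069676-31079894 (10219 bp) a peak of ancestral animal 2 covered the whole region with a fold of 3.52, while ancestral animals 1 and 3 covered 1314 and 1517 bp with folds of 2.52 and 2.73, and no base was shared by all 3. In chr10:60357117-60363952 (6836 bp) ancestral animal 2 again covered the whole region, and ancestral animals 1 and 3 covered 1083 and 2863 bp. In chr16:2493945-2499785 (5841 bp) the covered lengths were 1587, 4860 and 2304 bp in ancestral animals 1, 2 and 3. In the other two, chr36:14839683-14845489 and chr11:55538653-55544409, ancestral animal 2 was again the one with the longest cover. It covered 5807 bp of the former beside 438 and 423 bp in ancestral animals 1 and 3, and 5088 bp of the latter beside 1700 and 816 bp. Over all members ancestral animal 2 covered more of the region than the other ancestral animals did in 202, ancestral animal 1 in 172 and ancestral animal 3 in 106.

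The members were spread over the genome. All 38 chromosomes held at least 1, with 2.73 members per 1000 merged regions overall and a range over chromosomes of 0.502 to 5.03. Chromosome 1 held 34 members, the most of any. Chromosome 34 was highest relative to its regions, with 14 of 2782, and chromosome 36 lowest, with 1 of 1993. Chromosome 10 held 7 members and 25 derived-only regions, and chromosome 29 held 10 members and 3 derived-only regions. Over the chromosomes, members outnumbered derived-only regions on 11, were fewer on 23 and equal in number on 4.

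Along the chromosomes there was no crowding at the ends or the middle. Split by position between the first base and the last called region, 159 members (33.1%) lay in the first part of equal length, 160 (33.3%) in the middle part and 161 (33.5%) in the last. Over all merged regions these shares were 32.9, 33 and 34.1%. The first 1 Mb of the chromosomes held 7 members (1.46%, against 1.57% of all regions). Within 1 Mb of the last called region lay 5 members (1.04%, against 1.57% of all regions and 1.72% of regions called in exactly 3 animals).

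Most members stood alone. The median gap between neighbouring members was 2.87 Mb, 453 members had no other within 50 kb, and the rest formed 12 pairs and 1 run of 3. The run of 3 lay at chr15:5469430-5472827, chr15:5520155-5522015 and chr15:5548657-5549572, in a span of 80143 bp with 7 merged regions of which 1 was called in all 6 animals. The closest pairs were chr29:27105385-27106100 with chr29:27107516-27110001, in a span of 4617 bp, and chr4:8937449-8939117 with chr4:8940658-8942429, in 4981 bp. No other merged region lay inside either span. A pair on chromosome 16 (chr16:47672658-47673107 and chr16:47691523-47692780) spanned 20123 bp, and a pair on chromosome 17 (chr17:5089793-5092790 and chr17:5116138-5117387) spanned 27595 bp. Within 50 kb of a derived-only region lay 13 members (2.71%), compared with 4.68% of regions called in exactly 3 animals and 4.34% of all merged regions, the derived-only regions left out of both. The median distance from a member to a derived-only region was 1.31 Mb.

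The TE that defines the genotypes lies on chromosome 6, and the members nearest to it were over 1 Mb away. Between 5 and 7 Mb of that chromosome there were 284 merged regions, 71 of them called in all 6 animals and 15 in exactly 3, with 0 ancestral-only regions and 1 derived-only region. At the share of 0.273% found over all merged regions, 284 regions would hold 0.776 members, so a count of 0 is near that share. Chromosome 6 held 13 members in all. The nearest at lower coordinates, chr6:4703666-4706522, was 1.05 Mb from the TE and had folds of 2.64, 2.9 and 2.33 in ancestral animals 1, 2 and 3. The nearest at higher coordinates, chr6:16438088-16439268, was 10.7 Mb away with folds of 2.28, 3.39 and 2.29, and ancestral animal 1 also had an E2F1 peak there with a fold of 6.21.

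With all deposited peaks of the 6 animals, the only setting in which the classes were compared, members lay farther from acetylated regions common to all animals than derived-only regions did. The median distance from a member to the nearest region called in all 6 animals was 13039 bp (quartiles 3612 and 44685 bp), against 6114 bp for derived-only regions and 7709 bp for all regions called in exactly 3 animals. Within 10 kb of such a region lay 220 members (45.8%), compared with 62.4% of derived-only regions and 56% of those called in exactly 3 animals. Within 100 kb the median member had 5 such neighbours, the median derived-only region 7, and 56 members (11.7%) had none, against 2.43% and 5.85% in these classes. These distances use the same H3K27ac lists as the rule and were not tested. With single animals left out, the ancestral-only regions were chosen anew, and distances were taken to regions called in all remaining animals. These are other sets than the members. The median distance was then lowest without ancestral animal 2, at 8524 bp, more than 1.5 times closer. It was highest without ancestral animal 1, at 19676 bp, more than 1.5 times farther. Without derived animal 2 it was 8689 bp, also more than 1.5 times closer.

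The neighbours were much like those of the other regions called in 3 animals. The nearest region called in all 6 animals had a median width of 3649.5 bp, against 3746 bp for the neighbours of regions called in exactly 3 animals, 4004 bp for those of derived-only regions and 4118.5 bp over all regions called in 6 animals. It lay at higher coordinates for 241 members and at lower coordinates for 239. An E2F1 peak of at least 1 animal lay in 267 of the members' neighbours (55.6%), in 56.9% of those of regions called in exactly 3 animals, in 56.3% of those of derived-only regions and in 61.7% of all regions called in 6 animals.

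The extremes of distance show both settings. The closest member, chr26:7720949-7722084, began 56 bp after chr26:7717620-7720892, a region called in all 6 animals, and its folds were 2.33, 2.31 and 2.25 in ancestral animals 1, 2 and 3. The next, chr20:4372136-4374627 and chr5:54262085-54263686, lay 327 and 398 bp from theirs. In these 3 members −log10 q was between 1.23 and 2.69 in every ancestral animal, below the median of the list except for chr20:4372136-4374627 in ancestral animal 1 (2.69). At the other end chr4:83422668-83423154 was 2319181 bp from the nearest region called in all 6 animals, with folds of 2.95, 2.76 and 2.62, although a peak of derived animal 3 with a −log10 q of 5.66 lay 3383 bp away. The member chr29:33980364-33981170 was 1264279 bp away, with its nearest derived peak at 119728 bp. The member chr8:21646040-21647380 was 718503 bp away, and its −log10 q was 1.26 in ancestral animal 1 but 5.25 and 7.11 in ancestral animals 2 and 3.

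The strongest members were ranked by their lowest percentile over the 3 ancestral lists, which ran from 54.8 to 73.3 in the 10 highest. In 7 of these 10 the region was under 500 bp wide. The first, chr9:317271-317604, was 334 bp wide and had folds of 3.44, 5.57 and 5.53 and −log10 q values of 4.65, 12.1 and 11 in ancestral animals 1, 2 and 3. It was a close neighbour of a region as narrow as itself that was called in all 6 animals, chr9:315863-316197, at 1073 bp. The peak of derived animal 1 in that neighbour had a −log10 q of 18.5.

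The member ranked next, chr12:14292-14600, was the narrowest of all (309 bp) and lay near the start of its chromosome. Its folds of 1.76, 1.76 and 1.59 were below the median of the members, yet its −log10 q values were high, at 11.2, 8.25 and 8.28. Fold and q therefore ranked this region differently. The nearest derived H3K27ac peak was 170641 bp away, and E2F1 peaks were called over the region in all 6 animals.

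The other strong members were mostly narrow, with a derived peak nearby. The member chr8:61941723-61942093 had folds of 3.86, 6.07 and 3.73 in ancestral animals 1, 2 and 3, and derived animal 3 had a peak 1290 bp away. In chr4:28180612-28181681 the folds were 4.24, 3.6 and 4.24, with the nearest derived peak 8787 bp away. In chr21:21344926-21345342 they were 3.77, 3.39 and 3.56, and a region called in all 6 animals began 1049 bp farther on. All 3 members stood above the list median in every ancestral animal.

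Of the rest, chr18:47863150-47863751 had folds of 3.18, 3.65 and 4 and chr26:18212155-18212509 folds of 3.48, 3.87 and 3.06 in ancestral animals 1, 2 and 3. Derived peaks lay 1130 and 1214 bp from them. The folds were 2.91, 3.5 and 3.97 in chr25:28765136-28765460, and 3.6, 3.68 and 3.43 in chr15:34867629-34868067, with derived peaks 2553 and 2782 bp away. The last, chr14:13128235-13130414, was the widest of the 10 at 2180 bp, with a fold of 5.16 in ancestral animal 2 and 3.16 and 3.12 in ancestral animals 1 and 3. Of the 10, only the member on chromosome 12 had no derived peak within 10 kb, and 6 lay within 10 kb of a region called in all 6 animals.

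E2F1 was measured in libraries that the rule did not use. E2F1 peaks with q below 0.0005 overlapped 17 of the 480 members (3.54%) in ancestral animal 1, 33 (6.88%) in ancestral animal 2 and 15 (3.12%) in ancestral animal 3. They overlapped 12 (2.5%) in derived animal 1, 27 (5.62%) in derived animal 2 and 17 (3.54%) in derived animal 3. The genotypes overlap in these shares. The lists differ in length, with 30961, 41132 and 50080 E2F1 peaks in ancestral animals 1, 2 and 3 and 18947, 63306 and 35479 in derived animals 1, 2 and 3, and the order of the animals depended on it. With an equal number of E2F1 peaks per animal the shares were 2.08, 2.71 and 1.04% in the ancestral and 2.5, 0.625 and 1.88% in the derived animals, so that derived animal 2 went from among the highest to the lowest. The ancestral animals had a mean share of 4.51% ± 2.06 (SD, n = 3). The derived animals had 3.89% ± 1.59 (SD, n = 3), which is 0.625 percentage points lower. This difference was smaller than the spread between animals (exact two-sided permutation test over 20 assignments, p = 0.7, where 0.1 is the smallest p that 3 against 3 animals can give). The difference was 1.11 points with regions widened by 1000 bases, 0.278 points with an equal number of E2F1 peaks and 0.0694 points with E2F1 q below 1e-10. Its direction turned with all deposited E2F1 peaks (−0.625 points) and, with the 480 members unchanged, without ancestral animal 2 (−0.556 points) and without derived animal 1 (−0.0694 points).

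E2F1 was less frequent in these members than in H3K27ac regions at large, in every animal. The same held in every animal for derived-only regions and for all regions called in exactly 3 animals, so it was not particular to the members. Over all merged regions the share with an E2F1 peak was 7.87, 10.7 and 11.5% in ancestral animals 1, 2 and 3 and 4.53, 14 and 8.19% in derived animals 1, 2 and 3. The share in members divided by this share was 0.45, 0.643 and 0.272 in the ancestral and 0.552, 0.401 and 0.432 in the derived animals. Against regions called in exactly 3 animals, which are of like width, the ratios were 0.915, 1.37 and 0.573 in the ancestral and 0.968, 0.746 and 0.805 in the derived animals. Regions called in all 6 animals had shares of 20.5, 29 and 31.4% in ancestral and 11.1, 36.5 and 21% in derived animals. Those regions are also wider than the members, by their medians.

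Counted over animals, 95 members (19.8%) had an E2F1 peak in at least 1 animal and 385 had none, where 29.1% of all merged regions had one. Of regions called in exactly 3 animals the share was 22.2%, and of derived-only regions 21%. Most of the 95 had it in a single animal (76 members), 15 in 2 animals and 3 in 3 animals. The peak was in ancestral animals alone in 48 members (10%, against 9.42% of all merged regions) and in derived animals alone in 38 (7.92%, against 8.94%). It was in both genotypes in 9 members (1.88%, against 10.7%). E2F1 overlapped 15 of the 120 narrowest members (12.5%) and 37 of the 120 widest (30.8%).

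An E2F1 peak in at least 2 ancestral and no derived animal occurred in 5 members (1.04%), where 1.24% of all merged regions had this pattern. The mirror pattern, at least 2 derived and no ancestral animal, also occurred in 5 members (1.04%, against 0.955% of all merged regions). Both shares were near those of all merged regions and above those of regions called in exactly 3 animals, which were 0.605% for the ancestral and 0.584% for the derived pattern. In derived-only regions the shares were 0.347% and 1.21%. With 5 members in each pattern these differences rest on few regions and were not tested.

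The 5 members with E2F1 in at least 2 ancestral and no derived animal had it in exactly 2 animals each. In chr26:21171539-21173060 E2F1 peaks had folds of 6.78 in ancestral animal 1 and 6.27 in ancestral animal 2, at chr26:21172457-21172840 and chr26:21171512-21171999. In chr28:208878-211959 the folds were 7.91 and 4.56 in the same animals, and the E2F1 peaks overlapped, at chr28:209839-210156 and chr28:210114-210368. In chr8:31037770-31039121 the folds were 4.32 in ancestral animal 2 and 5.12 in ancestral animal 3, with the peak of ancestral animal 2 at chr8:31038628-31038921 inside that of ancestral animal 3 at chr8:31038483-31038965. So the E2F1 peaks of both animals coincided in the members on chromosome 8 and, in part, at chr28:208878-211959, and were apart in that on chromosome 26.

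They were also apart in the other two. In chr5:76892386-76894016 E2F1 peaks of ancestral animals 2 and 3, with folds of 5.7 and 5.51, lay at chr5:76893860-76894086 and chr5:76892327-76892694. In chr28:4442693-4444212 those of ancestral animals 1 and 3, with folds of 5.62 and 4.54, lay at chr28:4442725-4443067 and chr28:4443660-4443921. The H3K27ac folds of all 5 members were between 2.16 and 3.37.

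A single member had E2F1 peaks in all 6 animals, the narrow region chr12:14292-14600 described above. The E2F1 −log10 q there was 40.6, 31.1 and 12.1 in ancestral animals 1, 2 and 3 and 32.4, 24.5 and 8.91 in derived animals 1, 2 and 3. The folds were 4.63, 5.08 and 3.32 in the ancestral and 3.99, 3.29 and 3.09 in the derived animals. E2F1 was thus called there in both genotypes, while H3K27ac was called in 1 of them. Multi-mapped reads were kept and input-enriched peaks were not removed from these lists. Whether this bears on the peaks at this region was not tested. Among the 10 strongest members, 4 had an E2F1 peak in at least 1 animal, where 19.8% of all members and 29.1% of all merged regions had one, and 10 members are too few to set against these shares. Besides chr12:14292-14600 these were chr9:317271-317604 and chr15:34867629-34868067, with E2F1 in ancestral animal 2 (folds 5.67 and 6.79), and chr4:28180612-28181681, with E2F1 in derived animals 2 and 3 (folds 4.49 and 4.76).

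Setting the members against their mirror class was chosen after the data were seen, and it is given without a test. The E2F1 share of ancestral-only regions minus that of derived-only regions was 0.769, 2.89 and −0.688 percentage points in ancestral animals 1, 2 and 3. It was −0.793, −2.52 and −1.83 points in derived animals 1, 2 and 3. Each ancestral value was above each derived value, though ancestral animal 3 and derived animal 1 differed by little. With all deposited E2F1 peaks the values were −1.51, 4.08 and 1.69 points in the ancestral and −3.65, −7.85 and −7.16 points in the derived animals, again without overlap. The genotypes overlapped when at least 50% of the E2F1 peak had to lie inside the region, with −1 points in ancestral animal 3 and −0.828 points in derived animal 1. With E2F1 peaks of q below 1e-10 they also overlapped, with values of 0.208, 0.243 and 0.035 points in the ancestral and 0.417, 0.208 and −0.173 points in the derived animals.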

How the data were processed

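*ChIP-seq* peak lists of 6 animals were used, 1 H3K27ac and 1 E2F1 list per animal. Per the submitters' processing notes, bcl2fastq 2.17, Trim Galore 0.0.6, Bowtie 1.1.2, deepTools 3.5.1 and MACS2 2.2.0 were used on CanFam3.1, while the methods of the study name another bowtie version. The authors kept multi-mapped reads and called peaks in each sample, not on pooled samples. Whether input entered the calls is not stated, and the removal of input-enriched peaks is a later step that these lists do not include. The deposited lists give a score, which was not used, a fold enrichment over local background, which is a ratio, and −log10 p and −log10 q values computed by the authors with MACS2. They are not normalized between animals, so members were ranked by percentiles within lists, and fold and q of different animals stand side by side as each list gives them, with no test between animals. The input libraries, genes, sequences and tissue markers were not analysed here.

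Regions were merged with Python 3.11.15, numpy 2.4.6, pandas 2.3.3 and scipy 1.17.1. The merging was checked against bedtools 2.31.1. Merging, the choice of regions, overlaps, nearest distances and the permutation test were tried on simulated or made-up values. The other steps were not. An overlap of at least 1 base counted. E2F1 shares were compared with an exact two-sided permutation test. The H3K27ac lists hold peaks with q up to 0.1, and the E2F1 lists peaks with q up to 0.05. For significant peaks the methods of the study give 0.05 for H3K27ac and 0.0005 for E2F1. All deposited H3K27ac peaks were used to choose the members, and those with q below 0.05 were an alternative. E2F1 peaks with q below 0.0005 were used, and all deposited E2F1 peaks, those with q up to 0.05, were an alternative. Members and lists were chosen with earlier results of these data known.

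Named regions were the 10 members with the highest lowest percentile by q, the 5 widest, those with E2F1 in at least 2 ancestral and no derived animal or in all 6 animals, the 5 runs with most members within 50 kb (equal runs by shortest span), those nearest to the TE, the 3 nearest to and 3 farthest from a region called in all 6 animals, and the 3 on each side of the rule. Alternatives were stricter thresholds, merging within 1000 bases, an equal number of peaks per animal, other overlap rules, all sequences, single animals left out and animals paired by replicate number. The contrast of ancestral-only with derived-only regions and its alternatives were added after seeing the data.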

Additional observations from a re-analysis of the deposited data

How the results depend on the processing

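The number of members was 431 with H3K27ac q below 0.05, 457 with peaks at most 1000 bases apart merged, 391 with an equal number of peaks per animal (overlapping only 206 of the 480 members), 426 with no derived peak within 1000 bases either and 488 with all sequences. It moved to 129 with q below 1e-05 and to 125 when the peaks of each ancestral animal had to cover at least 50% of the region. Leaving out any 1 animal relaxes the rule and gave 989 (without derived animal 2) to 1985 (without ancestral animal 2), more than 1.5 times the count for each of the 6 animals.

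The median width moved to 2321 bp with q below 1e-05 and ran from 1089 to 1489 bp with single animals left out and the regions chosen anew. The median distance to the nearest region called in all animals was 12250 bp with q below 0.05, 20251 bp with q below 1e-05, 13917 bp with merging within 1000 bases, 11170 bp with an equal number of peaks and 15157 bp with no derived peak within 1000 bases. It ran from 8524 to 19676 bp with single animals left out and the regions chosen anew.

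The E2F1 difference between genotypes was −0.625 points with all deposited E2F1 peaks and ran from −0.556 to 1.49 points with single animals left out of the E2F1 comparison alone and the 480 members unchanged, turning without ancestral animal 2 and without derived animal 1. Its direction was that of the main setting under the other alternatives, but its size was 1.11 points with regions widened by 1000 bases, 0.278 points with an equal number of E2F1 peaks and 0.0694 points with E2F1 q below 1e-10. The cause was not tested. With the replicate number as a block the difference was 0.625 points (exact sign-flip test, p = 0.5, where 0.25 is the smallest p that 3 pairs can give). The E2F1 shares of same-numbered animals deviated from their genotype means in the same direction in all 3 pairs (−0.972 and −1.39, 2.36 and 1.74, −1.39 and −0.347 points), but in only 1 pair with an equal number of E2F1 peaks and in only 1 pair with all deposited E2F1 peaks. Presence of H3K27ac peaks did not, with correlations of 0.0043, −0.0538 and −0.00558 across regions, and the labels give no shared source for a number.

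The contrast with derived-only regions, chosen after seeing the data, was 2.7 points and positive in 13 alternatives. With single animals left out and the regions unchanged it ran from 1.76 to 3.54 points. There its sign could not turn, since each ancestral value was above each derived value in the main setting. The replicate block kept the same difference by construction. The contrast was 7.64 points with all deposited E2F1 peaks, 1.38 points with an equal number of E2F1 peaks and 0.0117 points with E2F1 q below 1e-10.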

Other observations

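Chromosome X was outside the rule. It held 4541 merged regions, of which 8 (0.176%) were called in the 3 ancestral animals alone and 11 (0.242%) in the 3 derived animals alone.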
